A study of Mus musculus with 9 samples.

Results

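The glutathione transferases described here are 10 genes of the liver's conjugating enzymes, Gsta1, Gsta2, Gsta3, Gsta4, Gstm1, Gstm2, Gstm3, Gstm4, Gstp1 and Gstt1. Their probe sets were taken by gene symbol from the platform annotation, which gives 1 symbol to 19527 of the 22142 probe sets of the array. A named probe set was found for 9 of the 10 genes, 1 each, and all 9 passed the filter on low values in each of the 3 groups. Gsta1 had no named probe set and was not measured.

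Glutathione transferases couple the tripeptide glutathione to electrophilic compounds, among them drug metabolites, carcinogens and the aldehydes left by lipid peroxidation, and the conjugates are then pumped out of the cell. The soluble enzymes work as dimers and fall into classes by sequence, of which alpha, mu and pi are the main ones in mouse liver and theta is a smaller one. Several of their genes are induced by the transcription factor NRF2, which responds to oxidants, and by receptors for foreign compounds. In mice the pi class is more abundant in male than in female liver.

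The arrays measured liver RNA of C57BL/6 mice, wild type in every group, 6 weeks old per the labels and female per the methods, on day 15 of the experiment, with 3 mice in each of 3 groups and 1 array per mouse. Mock mice received no vector. The AAV-IFNα group received intravenously an adeno-associated virus of serotype 8 that expresses mouse IFNα1 from the elongation factor 1α promoter, which is active in many cell types. The AAV combination group received that vector together with a vector of the same kind encoding L37pA, an amphipathic peptide that mimics apolipoprotein A-I. AAV-L37pA alone and a vector without a transgene have no arrays, and the dose of vector in all was higher in the combination, so that effects of IFNα and of the vector itself cannot be told apart against Mock. Values are on the log2 scale after robust multi-array averaging (RMA), and array medians lay between 5.78 and 5.83. Differences were tested with limma on all 9 arrays, p-values were adjusted (Benjamini-Hochberg) over the 14715 probe sets that passed the filter, and a gene was called at an adjusted p under 0.05. Levels of different probe sets cannot be set against each other, because each probe set binds with its own efficiency.

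The promoters are shown first, for the genes whose values changed most, for Gsta1, whose window is the nearest in sequence to that of Gsta2, and for Gsta3 as a member that was not called. They are RefSeq windows on GRCm38.p6, from 250 bases before to 50 bases after the start of transcription, and 9 of the 10 genes matched, all but Gsta4. Capitals mark matches, on either strand, to TGACNNNGC, the core of the antioxidant response element that NRF2 binds, to GCGTG, the core of the xenobiotic response element that the aryl hydrocarbon receptor binds, or to the interferon-stimulated response element, searched as TTTC, any 2 bases and TTTC. The windows are Gsta1 (chr9:78230419-78230718, plus strand), Gsta2 (chr9:78347096-78347395, minus strand), Gstm1 (chr3:108017769-108018068, minus strand), Gstm3 (chr3:107969125-107969424, minus strand), Gstp1 (chr19:4037863-4038162, minus strand) and Gsta3 (chr1:21240335-21240634, plus strand).
Gsta1: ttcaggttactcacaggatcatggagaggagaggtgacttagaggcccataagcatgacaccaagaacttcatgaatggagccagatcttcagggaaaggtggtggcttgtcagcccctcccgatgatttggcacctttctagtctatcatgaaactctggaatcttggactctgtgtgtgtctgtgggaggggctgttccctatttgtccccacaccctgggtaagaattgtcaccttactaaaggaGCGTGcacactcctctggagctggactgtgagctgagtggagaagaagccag
Gsta2: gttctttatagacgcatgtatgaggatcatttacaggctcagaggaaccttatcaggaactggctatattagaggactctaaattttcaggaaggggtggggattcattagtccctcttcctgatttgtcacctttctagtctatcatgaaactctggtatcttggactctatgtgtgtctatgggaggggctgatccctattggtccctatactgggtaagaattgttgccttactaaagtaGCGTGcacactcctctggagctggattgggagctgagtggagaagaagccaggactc
Gstm1: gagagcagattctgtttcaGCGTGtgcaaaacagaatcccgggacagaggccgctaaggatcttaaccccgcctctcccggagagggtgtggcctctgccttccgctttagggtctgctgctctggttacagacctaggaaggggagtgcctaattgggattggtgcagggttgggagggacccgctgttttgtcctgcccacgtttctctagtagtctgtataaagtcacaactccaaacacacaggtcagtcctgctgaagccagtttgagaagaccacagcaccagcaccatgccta
Gstm3: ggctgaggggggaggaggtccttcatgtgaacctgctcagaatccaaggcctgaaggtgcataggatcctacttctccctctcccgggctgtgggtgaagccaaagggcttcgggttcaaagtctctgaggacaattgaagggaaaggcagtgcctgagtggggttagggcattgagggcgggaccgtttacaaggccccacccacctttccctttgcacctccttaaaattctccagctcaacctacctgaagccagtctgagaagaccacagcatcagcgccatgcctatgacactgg
Gstp1: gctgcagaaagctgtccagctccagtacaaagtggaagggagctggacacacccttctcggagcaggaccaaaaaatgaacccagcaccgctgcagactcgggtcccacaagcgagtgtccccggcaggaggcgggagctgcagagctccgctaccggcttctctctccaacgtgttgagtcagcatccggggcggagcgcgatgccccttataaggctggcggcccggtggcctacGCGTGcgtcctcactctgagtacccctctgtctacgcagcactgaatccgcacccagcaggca
Gsta3: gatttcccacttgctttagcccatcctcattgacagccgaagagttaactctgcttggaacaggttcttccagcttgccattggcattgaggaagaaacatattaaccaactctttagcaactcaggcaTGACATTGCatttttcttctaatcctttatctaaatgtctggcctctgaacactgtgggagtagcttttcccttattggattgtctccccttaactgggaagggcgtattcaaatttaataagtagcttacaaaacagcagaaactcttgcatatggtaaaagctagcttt

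The antioxidant response element core was found in the window of 1 member, Gsta3, as TGACATTGC at position -121, and in 12.4% of all 32851 windows. The xenobiotic response element core lay in the windows of 4 members, Gsta1, Gsta2, Gstm1 and Gstp1, and in 32.4% of all windows. In Gsta1 and Gsta2 it stood close to the start, at positions -2 and -7. The interferon-stimulated response element occurred only in the window of Gstt1 (TTTCCCTTTC at -185), against 3.44% of all windows. These matches are letters in a window of 300 bases and were not tested for binding. An element outside the window, or a variant inside it whose letters differ from the searched string, would not be seen. A window without a match is thus not shown to lack such an element. The windows of Gsta1 and Gsta2 shared 238 of 316 alignment columns (75.3%), those of Gstp1 and its neighbour Gstp2 77.1%, and those of Gstm1 and Gstm3 59.8%. The mu genes lie side by side on chromosome 3 in the order Gstm5, Gstm7, Gstm6, Gstm3, Gstm2, Gstm1 and Gstm4, with 0 other protein-coding genes between them. On chromosome 9, Gsta4 and Gsta1 are adjacent and 4 protein-coding genes separate them from Gsta2, whereas Gsta3 is on chromosome 1. Such copies are near-identical in parts, and probe sequences were not used here, so whether each probe set reads only its own gene is uncertain within the mu, pi and alpha classes.

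In mice treated with AAV-IFNα, the inducible alpha-class gene Gsta2, the pi-class member Gstp1 and the 4 mu-class members Gstm1 to Gstm4 rose over Mock. Gsta4 rose to a smaller extent. Other mu and pi genes of the array, given further below, did not all rise. Altogether 7 of the 9 measured genes were called higher and 0 lower by limma, where 16.3% of all probe sets tested were called, 11.2% higher and 5.06% lower. The median log2 fold change of the 9 genes was 0.82, against -0.02 for all probe sets tested. In the AAV combination, Gsta2, Gstp1, Gstm3 and Gstm1 rose over Mock. These 4 of 9 were called higher and 0 lower, against 5.21% of all probe sets called, 4.19% higher and 1.03% lower. The median of all 9 genes was 0.59 and that of all probe sets 0.00. Both comparisons share the Mock arrays. With limma's B-statistic above 0, which the methods used as threshold, 5 members were higher with AAV-IFNα, against 5.22% of all probe sets, and 4 in the combination, against 2.28%.

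**Figure D1:**
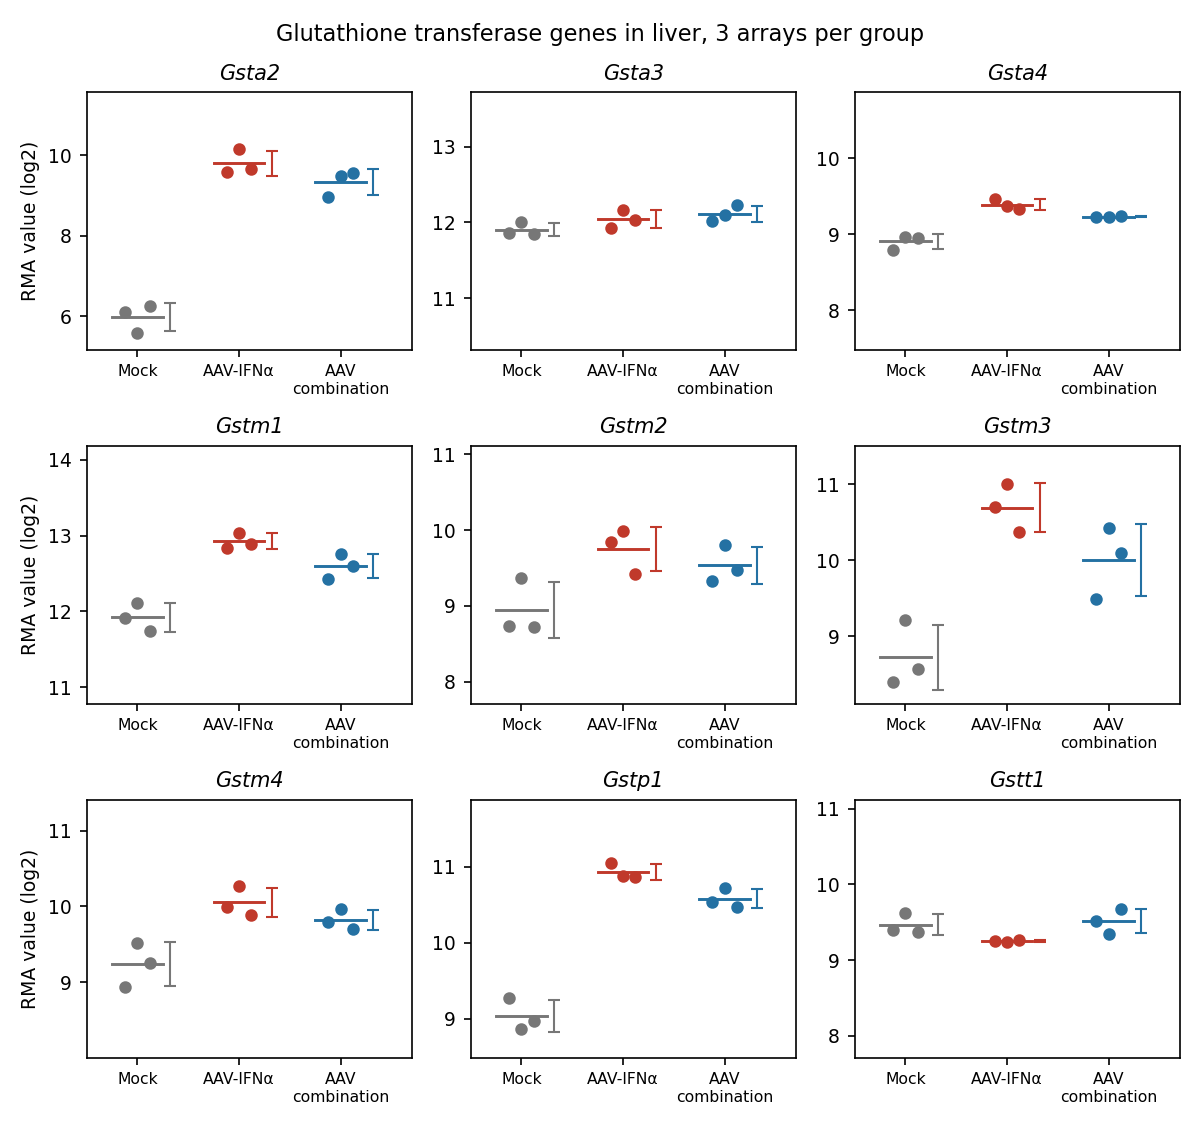
RMA value (log2, y axis) of each measured glutathione transferase in Mock, AAV-IFNα and AAV combination livers; points are arrays (replicates 1 to 3 from left to right), lines are means and bars are 1 SD (n = 3). The y axes span the same range except that of Gsta2, which is wider, and Gsta2 and Gstp1 show both treated groups well apart from Mock whereas Gsta3 and Gstt1 stay near it.

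Gsta2, an alpha-class enzyme that is inducible in mouse liver, had log2 values of 6.10, 5.59 and 6.26 in the 3 Mock arrays, 9.57, 10.14 and 9.67 with AAV-IFNα, and 8.95, 9.49 and 9.55 in the combination. All 6 treated arrays lay far above the Mock arrays. The treated groups did not overlap, the combination being lower, but its highest array lay barely below the lowest AAV-IFNα array (9.548 against 9.575). Its log2 fold change was 3.81 with AAV-IFNα (SE 0.21, adjusted p = 7.0e-08, limma), or 14.03-fold, and 3.34 in the combination (SE 0.21, adjusted p = 4.7e-07), or 10.2-fold. In every alternative run both calls held.

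Gsta3 and Gsta4 are also of the alpha class. Gsta3, whose enzyme detoxifies the aflatoxin epoxide in mice, had values of 11.86, 12.01 and 11.85 in Mock, 11.93, 12.16 and 12.03 with AAV-IFNα, and 12.01, 12.10 and 12.23 in the combination. The AAV-IFNα arrays overlapped both other groups, and the lowest combination array lay barely above the highest Mock array (12.014 against 12.007). No difference from Mock was called, at 0.14 with AAV-IFNα (95% interval -0.13 to 0.41, adjusted p = 0.48, limma) and 0.21 in the combination (-0.06 to 0.48, adjusted p = 0.34). Gsta4, which conjugates aldehydes from lipid peroxidation, had 8.80, 8.97 and 8.95 in Mock, 9.47, 9.37 and 9.34 with AAV-IFNα, and 9.23, 9.23 and 9.25 in the combination. Neither treated group overlapped Mock. Its rise of 0.49 with AAV-IFNα was called (SE 0.12, adjusted p = 0.013), but not without Mock replicate 1 (0.43, adjusted p = 0.051), without AAV-IFNα replicate 1 (0.45, adjusted p = 0.056) or after another quantile normalization (0.34, adjusted p = 0.065). In the combination the difference was 0.33 (adjusted p = 0.12) and was not called.

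The means of the 4 mu-class genes Gstm1 to Gstm4 were highest with AAV-IFNα and intermediate in the combination, with 0 called between the treated groups. Gstm1, a major constitutive mu-class enzyme of mouse liver, had 11.91, 12.11 and 11.74 in Mock, 12.84, 13.04 and 12.89 with AAV-IFNα, and 12.43, 12.76 and 12.60 in the combination. The 3 groups did not overlap. It rose 2.01-fold with AAV-IFNα (log2 1.00, SE 0.14, adjusted p = 0.00029, limma) and 1.60-fold in the combination (log2 0.68, adjusted p = 0.014). The latter was no longer called when Mock replicate 3 was left out (0.59, adjusted p = 0.059), nor when combination replicate 2 (0.60, adjusted p = 0.070) or 3 (0.67, adjusted p = 0.062) was.

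Gstm3 changed most within the class. Its values were 8.40, 9.21 and 8.56 in Mock, 10.71, 11.01 and 10.37 with AAV-IFNα, and 9.49, 10.43 and 10.09 in the combination. Every treated array was above every Mock array, while AAV-IFNα and the combination overlapped. The gene rose 3.92-fold with AAV-IFNα (log2 1.97, SE 0.26, adjusted p = 0.00015, limma) and 2.43-fold in the combination (log2 1.28, SE 0.26, adjusted p = 0.011). Without combination replicate 2 or 3 the latter fell short of the threshold (1.07, adjusted p = 0.056, and 1.24, adjusted p = 0.055), so that Gsta2 and Gstp1 were then the 2 members called.

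Gstm4 had 8.94, 9.52 and 9.25 in Mock, 9.998, 10.27 and 9.89 with AAV-IFNα, and 9.80, 9.96 and 9.71 in the combination. Gstm2 had 8.73, 9.37 and 8.72 in Mock, 9.84, 9.99 and 9.42 with AAV-IFNα, and 9.33, 9.81 and 9.47 in the combination. For Gstm4 no treated array fell within the Mock range, whereas for Gstm2 combination replicate 1 lay below Mock replicate 2. Gstm4 rose by 0.82 with AAV-IFNα (adjusted p = 0.0042, limma) and was 0.59 above Mock in the combination without passing the test (adjusted p = 0.056), although it passed without Mock replicate 2 (0.73, adjusted p = 0.023) and in 5 other settings. For Gstm2 the rise of 0.81 with AAV-IFNα was called (adjusted p = 0.018), a call lost on leaving out Mock replicate 1 (adjusted p = 0.067) or Mock replicate 3 (adjusted p = 0.069), and likewise AAV-IFNα replicate 1 (adjusted p = 0.061) or AAV-IFNα replicate 2 (adjusted p = 0.080). In the combination its 0.59 did not pass (adjusted p = 0.11), though it did without Mock replicate 2 (0.81, adjusted p = 0.029). For each of these 4 mu genes, Gstm1 to Gstm4, replicate 2 was the highest array in all 3 groups. The labels do not say that a replicate number links mice of different groups.

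Gstp1, a pi-class enzyme, had 9.27, 8.87 and 8.97 in Mock, 11.06, 10.88 and 10.87 with AAV-IFNα, and 10.54, 10.72 and 10.48 in the combination. The arrays fell into 3 bands without overlap, Mock lowest and AAV-IFNα highest. It rose 3.74-fold with AAV-IFNα (log2 1.90, SE 0.14, adjusted p = 8.7e-07, limma) and 2.92-fold in the combination (log2 1.54, SE 0.14, adjusted p = 1.4e-05), and both calls held in every alternative run. Gstp1 is abundant in bile duct cells. Of the cholangiocyte markers, Krt19 and Cftr lay below the filter and Krt7, Epcam and Sox9 differed from Mock by -0.32, -0.15 and -0.05 with AAV-IFNα, with 0 of the 3 called. The part of these cells in the Gstp1 values was not tested.

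Gstt1, a theta-class enzyme that acts on small halogenated compounds, had 9.40, 9.63 and 9.38 in Mock, 9.25, 9.24 and 9.27 with AAV-IFNα, and 9.52, 9.35 and 9.68 in the combination. The AAV-IFNα arrays lay below all others and close together, and the combination overlapped Mock. The difference of -0.21 with AAV-IFNα did not pass the test (95% interval -0.49 to 0.07, adjusted p = 0.28, limma), nor did that of 0.05 in the combination (-0.23 to 0.33, adjusted p = 0.86). Gstt1 was thus the member whose arrays were lower than Mock without overlap with AAV-IFNα, as were 16.4% of all probe sets, while 7 members were higher without overlap, against 19.6%. In the combination 7 members, the uncalled Gsta3 among them, lay above Mock without overlap, against 15.3% of all probe sets.

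**Figure D2:**
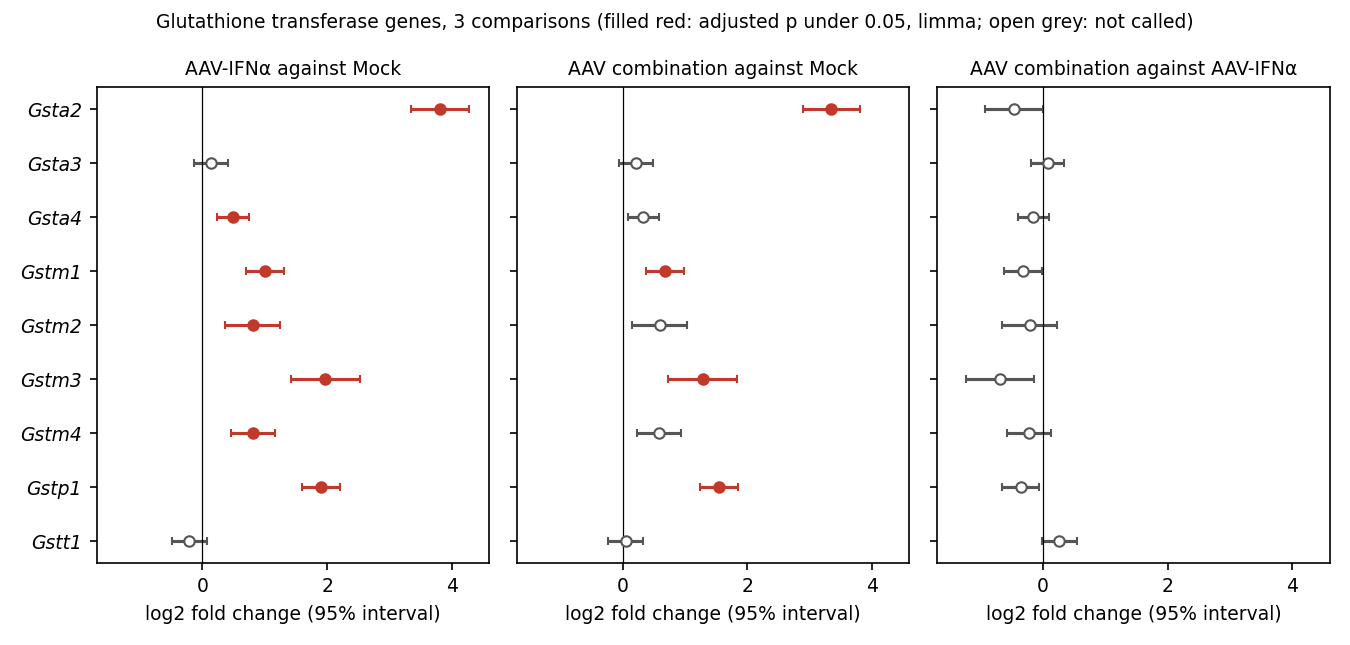
Log2 fold change with its 95% interval (x axis) of the 9 measured glutathione transferases (y axis) in the 3 comparisons; filled red points were called at an adjusted p under 0.05 and open grey points were not. With AAV-IFNα 7 genes were called, in the combination 4, and between the treated groups 0.

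The combination against AAV-IFNα asks whether these genes differed when AAV-L37pA was added. Effects of L37pA and of the additional vector cannot be told apart in it. No glutathione transferase was called between the treated groups, 0 by limma's adjusted p and 0 by the B-statistic (1.78% of all probe sets), where 2.6% of all probe sets were called, 0.394% higher and 2.2% lower. At an unadjusted p under 0.05, 4 members were lower in the combination (7.89% of all probe sets) and 0 higher (3.94%). Gstm3 differed by -0.69 (95% interval -1.24 to -0.14, adjusted p = 0.25), Gsta2 by -0.47 (adjusted p = 0.41), Gstp1 by -0.36 (adjusted p = 0.29) and Gstm1 by -0.33 (adjusted p = 0.36). The interval of Gsta2 ran from -0.93 to almost 0, and that of Gstm3 reached lowest of the 4, so the arrays do not show that the groups were alike. Gstt1 was higher by 0.26 (-0.02 to 0.54, adjusted p = 0.47). Group means ran from Mock over the combination to AAV-IFNα for 7 of the 9 genes, Gsta3 and Gstt1 being the others. Likewise 7 of 9 differences between the treated groups were negative, as were 48.9% of all probe sets. These are the 7 genes called higher with AAV-IFNα. The same AAV-IFNα arrays enter both differences, so a high AAV-IFNα mean feeds both, and the 48.9% is not limited to probe sets raised by AAV-IFNα. The arrays of Gsta2, Gsta4, Gstm1 and Gstp1 were lower in the combination without overlap (10.1% of all probe sets) and those of Gstt1 higher (7.4%).

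The median SD of the 9 members was 0.21 in Mock, 0.12 with AAV-IFNα and 0.16 in the combination, against 0.17, 0.16 and 0.15 for all probe sets tested. In a sample of whole liver, fewer cells of a type and less RNA per cell cannot be told apart. Of the 6 measured hepatocyte markers 0 were called in any comparison, and their mean log2 value lay between 12.87 and 12.95 in all arrays. Markers of other cell types also differed between the groups, not all in the same direction. All 7 leukocyte markers were called higher with AAV-IFNα and 4 in the combination, and between the treated groups 5 of the 7 were lower in the combination. Their summed level on the log2 scale ran from 9.12 to 9.24 in Mock, 10.69 to 11.60 with AAV-IFNα and 9.80 to 10.30 in the combination. Of 7 markers of Kupffer cells and monocytes, 5 were higher with AAV-IFNα (Ccr2 among them, which passed the filter in that group alone) and 3 in the combination, and 3 fell short of their AAV-IFNα level in the combination (called lower). Their summed level was 9.53 to 9.75, 11.14 to 11.68 and 10.67 to 11.07 in the same order. Of 6 pericentral hepatocyte markers, 4 were lower with AAV-IFNα and 0 in the combination. Between the treated groups 3 of these 6 were called higher in the combination and 0 lower, with a median difference of 0.51. Their summed level was 13.32 to 13.63 in Mock, 12.74 to 12.99 with AAV-IFNα and 13.32 to 13.61 in the combination. Against Mock, 1 of 5 periportal markers was higher in each treated group. With AAV-IFNα 3 of 6 endothelial markers were higher and 1 lower, and 1 of 6 stellate markers was lower. Beside these marker counts, 11.2% of all probe sets were called higher and 5.06% lower with AAV-IFNα. In the combination 4.19% were called higher and 1.03% lower, and between the treated groups 0.394% were called higher and 2.2% lower. A count of 1 among 5 or 6 markers is too small to set against such shares. The part of these cells in the transferase values was not tested.

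Of 20 further transferase genes, 17 were on the array by name and 14 passed the filter. With AAV-IFNα 2 of them were called higher, Gstp2 and Gstm6, and in the combination 1, Gstp2, with 0 lower in either, near the 11.2% and 4.19% of all probe sets called higher. Their median change was -0.02 and 0.17, against the -0.02 and 0.00 of all probe sets. Gstp2, the neighbour and near copy of Gstp1, had 8.82, 8.37 and 8.49 in Mock, 10.50, 10.33 and 10.38 with AAV-IFNα, and 9.91, 10.27 and 9.99 in the combination. It rose by 1.84 (adjusted p = 2.2e-06, limma) and 1.50 (adjusted p = 3.4e-05). Gstm6 had a rise of 0.66 with AAV-IFNα (adjusted p = 0.011), a call lost without AAV-IFNα replicate 2 (0.55, adjusted p = 0.055), and stood at 0.42 in the combination (adjusted p = 0.13). Gstm5, at the far end of the mu cluster, had values of 6.24, 6.33 and 6.42 in Mock, 6.04, 6.10 and 6.06 with AAV-IFNα, and 6.73, 6.69 and 6.51 in the combination. It was the 1 superfamily gene called between the treated groups, 0.58 higher in the combination (adjusted p = 0.023), but not without AAV-IFNα replicate 1 (0.57, adjusted p = 0.099) or 2 (0.60, adjusted p = 0.054) or combination replicate 1 (0.54, adjusted p = 0.098) or 2 (0.56, adjusted p = 0.10). The mitochondrial and peroxisomal Gstk1 changed by -0.21 and 0.18 against Mock without passing the test. The membrane-bound Mgst1, Mgst2 and Mgst3 and the other theta genes were not called either.

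**Figure D3:**
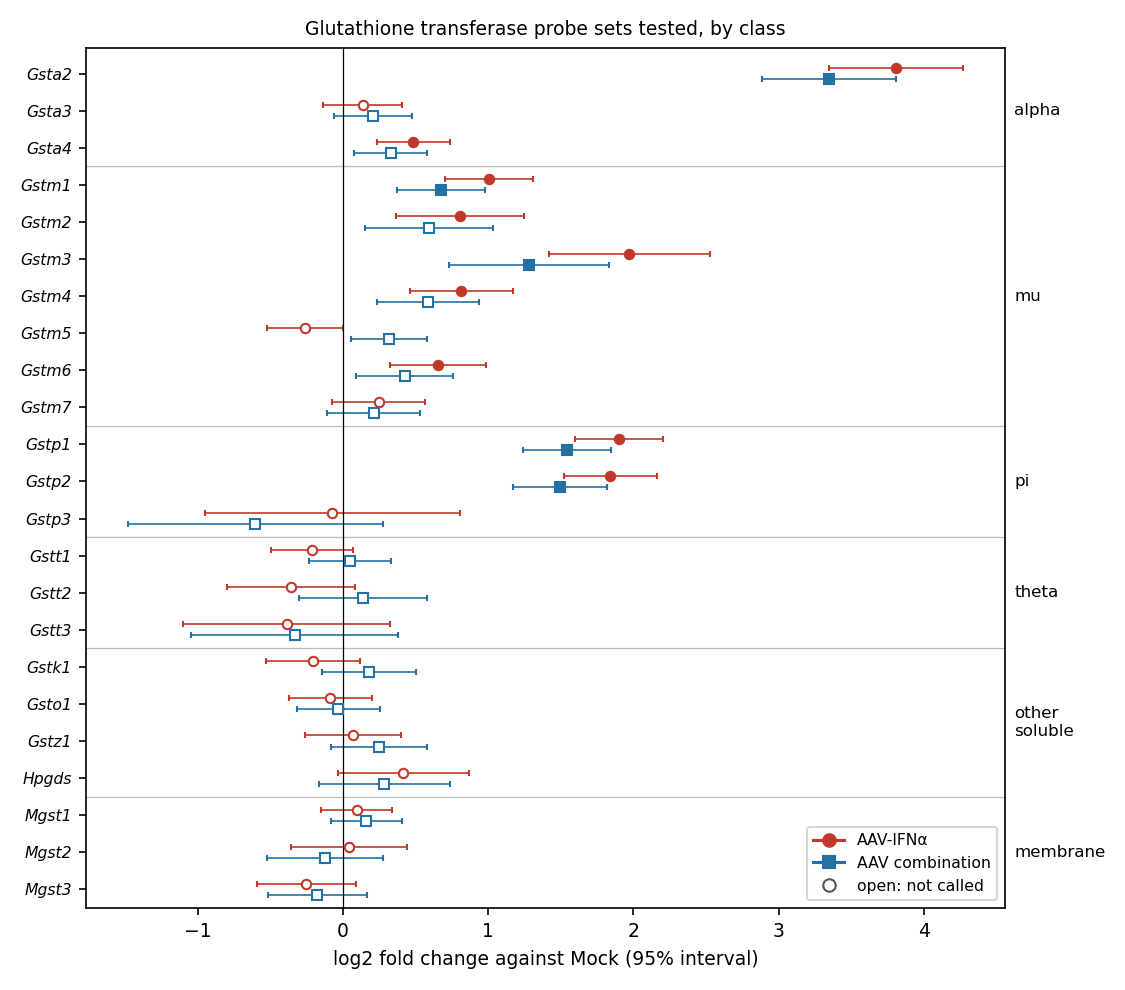
Log2 fold change against Mock with its 95% interval (x axis) for the 23 transferase genes tested, by class (y axis); circles are AAV-IFNα, squares the AAV combination, filled where called. The filled points lie in the alpha, mu and pi classes, led by Gsta2 at 3.81 and 3.34.

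Glutathione itself must be made and recycled for the transferases to work. Of 15 measured genes of synthesis and recycling, 2 were called higher with AAV-IFNα and 2 in the combination, with 0 lower, beside 11.2% and 4.19% of all probe sets called higher, and the median change was 0.19 and 0.07. They were Gsr, glutathione reductase, and Gclc, the catalytic subunit of the rate-limiting ligase. Gsr had 8.53, 8.27 and 8.09 in Mock, 9.11, 9.35 and 9.06 with AAV-IFNα, and 9.01, 8.92 and 8.96 in the combination, and all treated arrays exceeded Mock. It rose by 0.88 (adjusted p = 0.00091, limma) and 0.67 (adjusted p = 0.016), the latter call being lost without Mock replicate 3 or combination replicate 2 or 3 (adjusted p up to 0.068). Gclc rose by 0.97 (adjusted p = 0.0037) and 0.73 (adjusted p = 0.045), and the latter call was kept in 6 of 18 alternatives. Neither the glutathione-degrading Chac1 (-0.54, adjusted p = 0.065) nor Cth, which supplies cysteine (0.63, adjusted p = 0.11), passed with AAV-IFNα. Among 10 peroxidase, glutaredoxin and glyoxalase genes, 1 was called in each treated group, beside the same 11.2% and 4.19%. It was Glrx, a cytosolic glutaredoxin, which rose by 0.76 (adjusted p = 0.0013, limma) and 0.56 (adjusted p = 0.024). The latter was called in 13 of 18 alternatives and missed the threshold without Mock replicate 1 or 3 or combination replicate 2 or 3 and after another quantile normalization (adjusted p up to 0.12).

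The conjugates leave the cell through transporters and are turned into mercapturates. Of 12 measured genes of these steps, 11 passed the filter in more than 1 group. Of these, 3 were higher and 1 lower in AAV-IFNα mice and 1 higher and 0 lower in combination mice, with medians of 0.04 and -0.02, beside 11.2% higher and 5.06% lower, and 4.19% higher and 1.03% lower, of all probe sets. Abcc3, a basolateral export pump, had 10.02, 9.75 and 9.89 in Mock, 10.47, 10.70 and 10.55 with AAV-IFNα, and 10.54, 10.46 and 10.58 in the combination, rising by 0.69 (adjusted p = 0.0023, limma) and 0.64 (adjusted p = 0.010, but 0.059 without combination replicate 3). Abcc4, another basolateral pump, had a rise of 1.00 with AAV-IFNα (adjusted p = 0.0077) and stood at 0.58 in the combination (adjusted p = 0.15). Nat8f1, of the N-acetyltransferase family of the last step, fell by 0.68 with AAV-IFNα (adjusted p = 0.012), a call lost without Mock replicate 1 (-0.59, adjusted p = 0.051) or AAV-IFNα replicate 1 (-0.56, adjusted p = 0.057), and differed by -0.13 in the combination (adjusted p = 0.66). Nat8, which makes mercapturates, passed the filter only in Mock, where it read 5.12, 5.28 and 5.03. Its values were 4.32, 4.47 and 4.20 with AAV-IFNα and 4.76, 4.51 and 4.62 in the combination, given as a description, since it entered the test through its highest group.

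Of 22 measured genes of NRF2 and its targets other than the transferases, 21 passed the filter in more than 1 group. Of these, 11 were called higher with AAV-IFNα and 7 in the combination, with 0 lower, beside 11.2% and 4.19% of all probe sets called higher, and the median change was 0.53 and 0.39. The count in the combination was 4 without Mock replicate 1 or 3 and without combination replicate 2 or 3. Nqo1, the quinone reductase most used as a readout of NRF2, had 5.94, 6.28 and 6.10 in Mock, 7.84, 8.16 and 7.65 with AAV-IFNα, and 7.79, 7.74 and 7.87 in the combination. It rose by 1.78 (adjusted p = 3.0e-06, limma) and 1.69 (adjusted p = 1.2e-05). The carbonyl reductase Cbr1 rose by 1.20 (adjusted p = 0.00029) and 0.72 (adjusted p = 0.026). The latter held in 13 of 18 alternatives and was lost on leaving out any 1 Mock array or combination replicate 2 or 3 (adjusted p up to 0.10). Cbr3 passed the filter only with AAV-IFNα, so its values are a description: 3.63, 4.29 and 4.15 in Mock, 5.18, 5.77 and 5.42 with AAV-IFNα, and 4.88, 4.79 and 4.52 in the combination. Hmox1, heme oxygenase, which macrophages also express, rose by 2.12 and 1.24 and differed by -0.89 between the treated groups (adjusted p = 0.023). This last call held in 13 of 18 alternatives and was lost without AAV-IFNα replicate 1 or 3 or any 1 combination array (adjusted p up to 0.12). The transcript of NRF2 itself, Nfe2l2, was 0.42 above Mock with AAV-IFNα (adjusted p = 0.052, limma) and 0.23 in the combination. With AAV-IFNα it was called in 7 of 18 alternatives (adjusted p 0.026 to 0.17). Keap1, the inhibitor of NRF2, rose by 0.53 with AAV-IFNα (adjusted p = 0.013, but 0.051 and 0.054 without AAV-IFNα replicate 1 or 2). NRF2 is regulated mainly as a protein, which these arrays do not measure.

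Receptors for foreign compounds are other inducers of these genes. Of 17 measured receptors and marker targets, 2 were higher in each treated group and 0 lower, beside 11.2% and 4.19% of all probe sets called higher, with medians of 0.07 and 0.14. These were Aldh1a1, an aldehyde dehydrogenase (0.96, adjusted p = 0.0010, and 0.79, adjusted p = 0.011, limma), and Cyp3a13 (0.64, adjusted p = 0.0088, and 0.61, adjusted p = 0.027). In the combination the call of Aldh1a1 was lost without combination replicate 3 (adjusted p = 0.066). That of Cyp3a13 held in 13 of 18 alternatives and was lost without Mock replicate 1 or 2 or combination replicate 2 or 3 and after another quantile normalization (adjusted p up to 0.13). Cyp3a11, the marker target of the pregnane X receptor, changed by 0.08 and 0.23, and Cyp2b10, that of the constitutive androstane receptor, by -0.21 and 0.22, none of which passed. The receptors Nr1i2 (0.01 and 0.04), Nr1i3 (-0.20 and 0.01) and Ahr (0.42 and 0.49) were not called in either group. Cyp1a1, the marker target of the aryl hydrocarbon receptor, stayed below the filter, between 3.79 and 4.61 in all arrays.

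**Figure D4:**
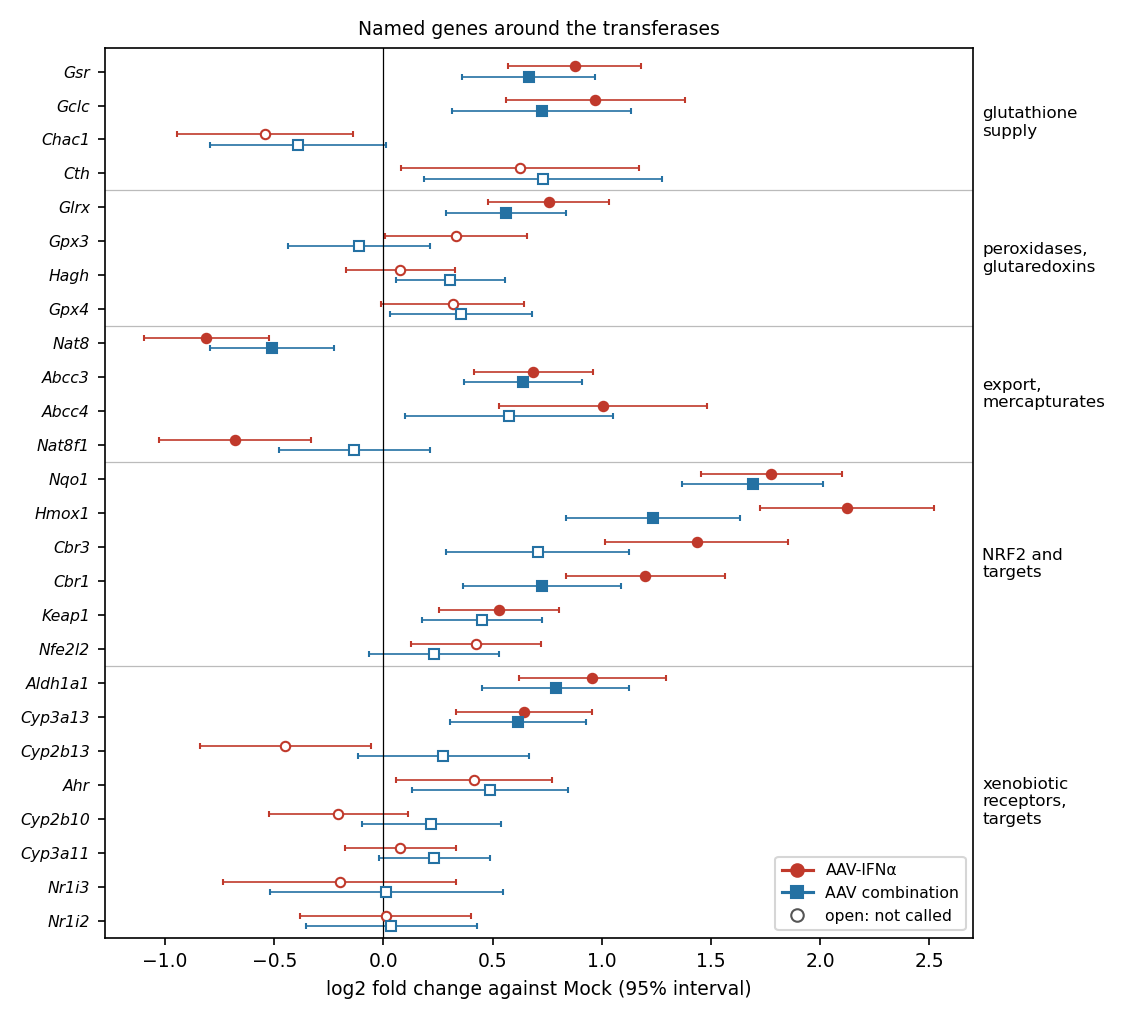
Log2 fold change against Mock with its 95% interval (x axis) for the named genes of glutathione supply, peroxidases and glutaredoxins, export and mercapturate formation, NRF2 and its targets, and xenobiotic receptors with their targets (y axis); circles are AAV-IFNα, squares the AAV combination, filled where called. Nqo1 and Hmox1 lie farthest to the right and Nat8 and Nat8f1 to the left; Nat8 and Cbr3 passed the filter in 1 group only.

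The probe sets whose profiles were most like those of the changed transferases were sought among 13231 named probe sets, by the root mean square difference over 9 arrays after subtraction of each gene's Mock mean. For Gsta2 they were Rsad2 (0.33), Gbp3 (0.38) and Gvin1 (0.40). For Gstp1 they were H2-T22 (0.15), Trp53inp1 (0.15) and Trim12a (0.18). For Gstm3 they were Mlkl (0.20), Parp11 (0.25) and Il15 (0.27), and for Gstm1 Trmt1l (0.07), Stard3nl (0.09) and Pnpt1 (0.09). The arrays are the same for every gene compared, so these are likenesses of profile over 3 groups of 3 mice and are given without a test.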

How the data were processed

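Liver RNA of 9 mice was measured on 1 array each, named as Clariom S in the methods and as another Affymetrix mouse array in the design text. The labels name polyA RNA, the methods total RNA. The deposited values are log2 expression values. The authors obtained them with RMA, which corrects background, normalizes arrays and summarizes probes, and whose version is not given in the sources used here. Groups follow the sample titles. Probe sets above 5 in 2 or more arrays of 1 group were tested two-sided with limma 3.58.1 in R 4.3.3 in 1 fit (6 residual and 6.91 prior degrees of freedom), with Benjamini-Hochberg adjustment. The 95% intervals come from the same fit and are not adjusted. With 3 against 3 arrays an exact test cannot go below p = 0.1, and precision is limited by how few arrays there are. The filter's criterion and limma follow the methods. On the deposited log2 values the criterion left 14715 of 22142 probe sets, whereas the methods' own selection was about as large as the whole table. A test of all probe sets is among the alternatives.

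Named genes are the 10 members, up to 4 genes with the smallest p of each of 6 pathway lists, fixed regulators and marker targets, and up to 3 nearest profiles of each member changed by a log2 of at least 1. Genes of 8 cell type lists were counted. Members and lists, 170 further genes in all, were chosen with earlier results of these data known. The p-values set a difference between groups against the spread of arrays within groups, which limma pools over the 3 groups and draws towards a prior. The labels only number the replicates, and that each is a separate mouse rests on the paper's 3 mice per group. Promoter windows are from RefSeq, aligned with Biopython 1.88. The annotation of the array names no genome build, so positions of probe sets are not given. Coordinates of the promoter windows and the order of genes are those of RefSeq. Figures were drawn with matplotlib 3.10.9. The fit was tested on simulated arrays with known changes. Alternatives were other filters, priors, normalizations, array weights, 1 probe set per gene, a block on replicate number, fits restricted to a pair of groups, the B-statistic, and omission of each array in turn. Those for list genes, and list counts without genes that passed the filter in 1 group only, were added after the data were seen.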

Additional observations from a re-analysis of the deposited data

How the results depend on the processing

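In every alternative run, 0 glutathione transferases were called between the treated groups. The count against Mock was 5 to 7 for AAV-IFNα and 2 to 6 for the AAV combination when each array was left out in turn, the lowest count of 2 arising without combination replicate 2 or 3. Directions turned for Gstt1 in the combination against Mock after another quantile normalization (-0.0764) and without combination replicate 3 (-0.0329, with 0.130 the highest value when an array was left out), and for Gsta3 between the treated groups after another quantile normalization (-0.00288), all values near 0 that were never called. Over all probe sets, calls with AAV-IFNα numbered 2400, 888 by the B-statistic and 1495 to 2424 with an array left out. Those in the combination numbered 767, 353 by the B-statistic, 1176 with array weights and 322 to 817 with an array left out. Between the treated groups they numbered 382, and 154 to 496 with an array left out. Settings with an array left out test fewer samples. The cause of the other shifts was not tested. Deviations of samples with the same replicate number correlated at -0.13 to 0.22 and those with different numbers at -0.25 to 0.19. These ranges overlap, and with 3 arrays per group they cannot decide whether the numbers pair mice. With the replicate number as a block, 7, 6 and 0 transferases were called in the 3 comparisons, Gstm2 (adjusted p = 0.036, limma) and Gstm4 (adjusted p = 0.029) being added in the combination.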
